A study of Mus musculus with 3 samples.

Results

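The genes described here are 37 genes listed for the smooth muscle contractile apparatus and actin binding, chosen by name, with earlier results of these data known. They were found in the deposited array values through the gene symbols of the array platform, and 37 of 37 had a value, out of 19938 named genes in all. By role they comprised 4 muscle actins, 5 genes for myosin and the enzymes that act on it, 10 thin filament genes, 16 genes for Z-disc, intermediate filament and adhesion proteins, and 2 transcription factors. Asb5 was placed in the group of 16, but no contractile or actin-binding role is shown for it here. RNA came from 3 cultures of mouse forestomach fibroblasts selected for FSP1, the product of the fibroblast gene S100a4, and each culture was measured on 1 Affymetrix mouse Gene 1.0 ST array. The Tgfbr2/Smad4 cKO line carried conditional knockouts of Tgfbr2, the type II TGF-beta receptor, and of Smad4, the common partner SMAD of the TGF-beta and BMP pathways, and was derived from normal forestomach. The Tgfbr2 cKO line carried the receptor knockout alone and was derived from a forestomach squamous cell carcinoma, so genotype and tissue of origin differ together there. The wild-type line came from normal forestomach. All cells were grown in medium with 10% fetal bovine serum and used at passages 4 to 6. Mice were C57BL6 and BALBc, mixed, male or female, with no strain or sex given per line. The driver of the recombinase, the number of animals behind a line and whether a line is a clone were not given in the sources used here.

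Smooth muscle cells and myofibroblasts contract when myosin slides along filaments of muscle-type actin. Contraction is switched on when myosin light chain kinase phosphorylates the regulatory light chain, and myosin phosphatase reverses it. Tropomyosin, calponin and caldesmon sit on the actin filament, and the filaments are anchored through alpha-actinin, filamin, vinculin and desmin at dense bodies and the cell membrane. Many of these genes are transcribed by serum response factor (SRF) with myocardin or its relatives, through a DNA motif named the CArG box, and TGF-beta is a well known inducer of the programme in fibroblasts.

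With 1 array per line there was no replicate spread, no test was possible and no p-value is given. Values are log2 signals as deposited, differences are one array minus another on that scale, and a gene was set apart at a size of 2-fold or more. A level filter asked that the highest of a gene's 3 values reach the median of all values, 6.63, and 11808 genes did so. The targeted genes were read by probes along the whole transcript and were nearly level. Tgfbr2 had signals of 10.29, 10.25 and 10.25, and Smad4 of 11.04, 11.06 and 11.06, in the arrays labelled Tgfbr2/Smad4 cKO, Tgfbr2 cKO and wild type, so they do not check the labels. Xist, expressed from the inactive X chromosome, had signals of 9.44, 5.35 and 5.33 in the same order, and the Y-linked gene Eif2s3y had 5.01, 10.00 and 10.12. The Tgfbr2/Smad4 cKO array thus carried a female pattern and the others a male one, and genotype, sex and culture cannot be told apart in comparisons with it. S100a4, whose product was used for selection, had signals of 12.71, 13.16 and 13.18. Col1a1, a fibrillar collagen chain gene, had 14.52, 14.38 and 14.33. All 11 listed fibroblast markers passed the level filter. In wild type, however, Dpt (dermatopontin) was at 5.21 and Fap (fibroblast activation protein) at 6.39, under the median of all values.

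The contractile genes were lower in the Tgfbr2/Smad4 cKO line than in either other line, and the extent differed widely between members. Against wild type, 34 of 37 members were below 0, 1 was above and 2 were equal, with a median difference of -0.37, where the median over all genes was 0. Of the 11808 genes that passed the level filter, 3801 (32.2%) were below 0, 3671 were above and 4336 were equal. Equal values were more frequent there than among members, so the shares below 0 are not directly comparable. Members at least 2-fold lower numbered 7 of 37, or 18.9%, against 2.18% of all genes that passed the filter, and 0 members were at least 2-fold higher, against 1.22%. These 7 were Myh11, Asb5, Actg2, Acta1, Des, Cnn1 and Pdlim3. The other 30 members lay between -0.95 and 0.79, with a median of -0.30. Of the 37 members, 36 passed the filter, and the remaining one, Myocd, was not near the 2-fold size. Since members were mostly bright, the same was read among genes that reached the 75th percentile of all values. There 29 of 30 members were below 0 and 1 was above. Of 6080 genes, 40% were below 0, while 2189 were above and 1460 equal. Among the 30 members 5 were at least 2-fold lower, against 2.42% of those genes. Mean wild-type signals were 11.99 for these members and 10.15 for these genes, so levels were not matched.

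**Figure D1:**
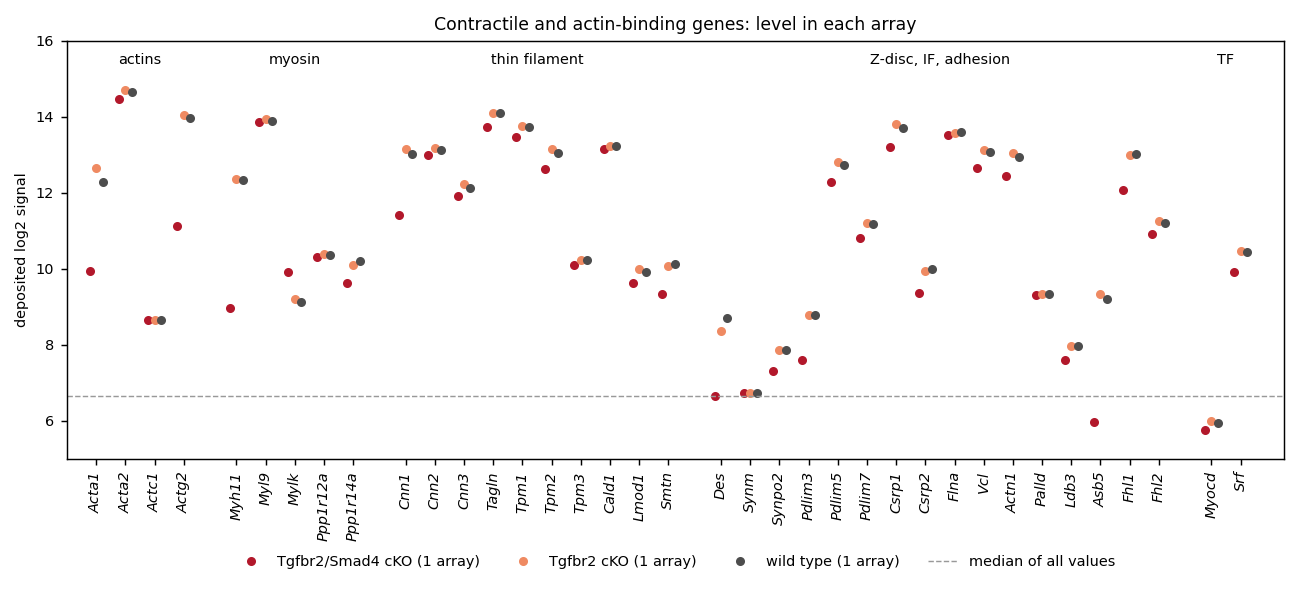
Deposited log2 signal of each of the 37 genes (vertical axis) in the Tgfbr2/Smad4 cKO, Tgfbr2 cKO and wild-type arrays, 1 point per array, grouped by role, with IF for intermediate filament and TF for transcription factor. The dashed line is the median of all values, 6.63. The Tgfbr2/Smad4 cKO point is the lowest for 34 genes, and levels should be compared within a gene only.

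Set beside the Tgfbr2 cKO line, the Tgfbr2/Smad4 cKO line gave 34 of 37 members below 0, with a median of -0.41. Of 11808 genes that passed the filter, 3984 (33.7%) were below 0, 3564 above and 4260 equal in this comparison. There 7 of 37 were at least 2-fold lower, against a background of 2.25%, and 0 were at least 2-fold higher, against 1.32%. All 7 genes named above were at least 2-fold lower in this comparison too. The 2 comparisons share the Tgfbr2/Smad4 cKO array, so they are not independent.

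The Tgfbr2 cKO and wild-type lines were close to each other. None of the 37 members differed 2-fold between them, where 0.00847% of genes that passed the filter were at least 2-fold lower and 0.0254% at least 2-fold higher. In the Tgfbr2 cKO array 22 members were above wild type, 8 were below and 7 had exactly the same value, with a median difference of 0.04, while 25.8% of genes that passed the filter were above. Of those 11808 genes, 3052 were above, 2245 below and 6511 equal. At the 75th percentile 21 of 30 members were above, 7 below and 2 equal, against 35.1% of genes above. Of the 6080 genes there, 2135 were above, 1404 below and 2541 equal. Equal values were more frequent among all genes than among members, so the shares above 0 are not directly comparable. The largest differences were 0.37 for Acta1 and -0.33 for Des, and the other 35 members lay between -0.09 and 0.15.

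**Figure D2:**
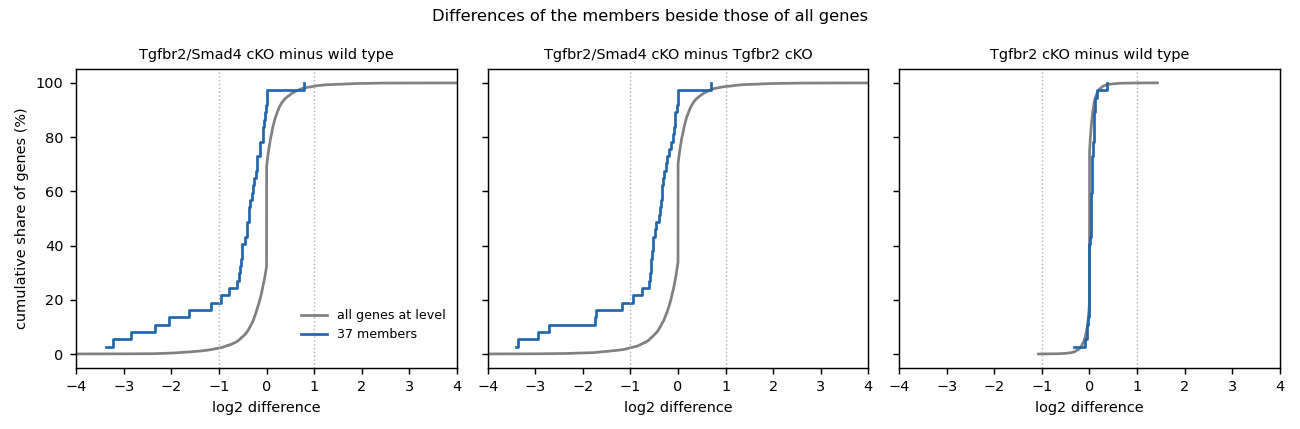
Cumulative share of genes (vertical axis, %) against log2 difference (horizontal axis, cropped at 4 in each direction) for the 37 members (blue) and for 11808 genes at or above the level filter (grey), one panel per comparison, with dotted lines at 2-fold. The blue curve runs left of the grey one in both panels with the Tgfbr2/Smad4 cKO array, with medians of -0.37 and -0.41, and close to it, slightly to the right, in the Tgfbr2 cKO panel, with a median of 0.04.

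The muscle actins divided into 2 that were much lower and 2 that were not. Actg2, the gamma actin of gut and other visceral smooth muscle, had a signal of 11.12 in the Tgfbr2/Smad4 cKO array, against 14.05 in the Tgfbr2 cKO array and 13.97 in wild type, which is 7.21-fold lower than wild type. Acta1, the actin of skeletal muscle, had signals of 9.94, 12.65 and 12.28 in the same order and was 5.05-fold lower than wild type. Both genes were thus far lower in 1 array, while between the others Actg2 differed by 0.09 and Acta1 by 0.37. Acta2, the alpha actin of vascular smooth muscle and the usual myofibroblast marker, had signals of 14.46, 14.70 and 14.66, a difference of -0.20 from wild type. Actc1, the cardiac actin, had 8.65 in every array. The smooth muscle actin genes thus differed unequally, by -2.85 for Actg2 beside -0.20 for Acta2. Muscle actins are nearly identical in protein sequence, and how far probes of one read another was not tested.

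Myosin showed its largest difference in the heavy chain. Myh11, the smooth muscle myosin heavy chain and a specific marker of differentiated smooth muscle, had a signal of 8.96 in the Tgfbr2/Smad4 cKO array, against 12.36 in the Tgfbr2 cKO array and 12.33 in wild type. It was 10.3-fold lower than wild type and 10.5-fold lower than Tgfbr2 cKO. Asb5 had differences of similar size, at -3.22 and -3.37 beside -3.37 and -3.40 for Myh11. Myl9, the regulatory light chain, had 13.85, 13.95 and 13.88 in the same order of arrays and so was nearly level. Mylk, the kinase that phosphorylates that light chain, ran the other way. Its signals were 9.91 in the Tgfbr2/Smad4 cKO array, 9.21 in the Tgfbr2 cKO array and 9.12 in wild type, a difference of 0.79 from wild type that made it the only member higher in the Tgfbr2/Smad4 cKO line. Ppp1r14a, an inhibitor of myosin phosphatase, had 9.62, 10.10 and 10.19 in the same order, a difference of -0.57 from wild type. Ppp1r12a, the targeting subunit of that phosphatase, was nearly level at -0.05. In the Tgfbr2 cKO line the 5 myosin genes lay between -0.09 and 0.08 from wild type.

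All 10 thin filament genes were below wild type in the Tgfbr2/Smad4 cKO line, most of them slightly, with a median of -0.29. Cnn1, the calponin typical of smooth muscle, was the one at least 2-fold lower, with a signal of 11.40 in the Tgfbr2/Smad4 cKO array, against 13.14 in the Tgfbr2 cKO array and 13.02 in wild type, a 3.08-fold difference from wild type. Next came Smtn, which encodes the actin-binding protein smoothelin, with signals of 9.33, 10.08 and 10.13 and a difference of -0.80. The other 8 lay between -0.42 and -0.07. Tagln, which encodes the calponin-related protein transgelin, had 13.73, 14.09 and 14.10, a difference of -0.36. The tropomyosin genes Tpm1, Tpm2 and Tpm3 differed from wild type by -0.25, -0.42 and -0.15. Tpm2 had the largest of these differences, with signals of 12.63 in the Tgfbr2/Smad4 cKO array, 13.16 in the Tgfbr2 cKO array and 13.05 in wild type. Lmod1, which nucleates actin filaments in smooth muscle, differed by -0.32, Cnn2 and Cnn3, the more widely expressed calponins, by -0.15 and -0.21, and Cald1, which encodes caldesmon, by -0.07. In the Tgfbr2 cKO line the same 10 genes lay between -0.05 and 0.12 from wild type.

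Of the 16 Z-disc, intermediate filament and adhesion genes, 15 were below wild type in the Tgfbr2/Smad4 cKO line and 3 were at least 2-fold lower, with a median of -0.48. Asb5, which encodes an ankyrin repeat protein with a SOCS box, had a signal of 5.97 in the Tgfbr2/Smad4 cKO array, against 9.34 in the Tgfbr2 cKO array and 9.19 in wild type. The first of these lies under the median of all values and the others well above it, and with 32 added to each linear signal the difference of -3.22 from wild type shrank to -2.70. Des, which encodes desmin, the intermediate filament protein of muscle, had signals of 6.64, 8.37 and 8.70 in the same order. It was 4.17-fold lower than wild type and sat at about the median of all values in the Tgfbr2/Smad4 cKO array, and with the same addition its difference was -1.77 in place of -2.06. Pdlim3, a PDZ and LIM protein that binds alpha-actinin at the Z-disc, had 7.59, 8.77 and 8.77 and was 2.26-fold lower.

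Other members of that group were lower by less. Fhl1, a LIM-only protein of muscle, lay just under the 2-fold size, with signals of 12.06 in the Tgfbr2/Smad4 cKO array, 13.00 in the Tgfbr2 cKO array and 13.02 in wild type and a difference of -0.95. Csrp2 and Csrp1, LIM proteins that bind alpha-actinin and zyxin, differed from wild type by -0.61 and -0.51. Synpo2, an actin-bundling protein of the Z-disc, differed by -0.56. Actn1, an alpha-actinin that crosslinks actin filaments, had signals of 12.43, 13.04 and 12.94 in the same order of arrays, a difference of -0.51 from wild type and of -0.61 from Tgfbr2 cKO. The bright anchoring genes were thus lower in the Tgfbr2/Smad4 cKO line by less than 2-fold. The PDZ and LIM genes Pdlim5 and Pdlim7 differed by -0.45 and -0.37, and Vcl, which encodes vinculin of focal adhesions, by -0.41. Ldb3, a Z-disc protein of striated muscle, differed by -0.34 and the LIM-only gene Fhl2 by -0.29. The adhesion and crosslinking genes Flna (filamin A) and Palld (palladin) were nearly level, at -0.08 and -0.01, and Synm, which encodes synemin, a partner of desmin, had 6.72 in every array. That Synm value was shared by between 33 and 38 other probe sets in each array, which limits what its equality can show.

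Srf and Myocd, known to control many of these genes, differed from wild type by less than 2-fold. Srf had signals of 9.91 in the Tgfbr2/Smad4 cKO array, 10.46 in the Tgfbr2 cKO array and 10.45 in wild type, a difference of -0.54 from wild type. Myocd, the muscle-restricted partner of SRF, had 5.74, 5.98 and 5.94, all under the median of all values. Of 18 measured SRF cofactors and other transcription factors known in smooth muscle and gut mesenchyme, 0 were at least 2-fold different from wild type. In this list 6 were lower, 7 higher and 5 equal, with a median of 0. Of genes that passed the filter, 2.18% were at least 2-fold lower, 1.22% at least 2-fold higher and 32.2% below 0. The counts of 0 and 6 among 18 lie near those shares. Mrtfa, an actin-regulated SRF partner, differed by -0.35 and its relative Mrtfb by 0.06. Gata6, a factor of smooth muscle and gut, differed by 0.69 from wild type and by 1.18 from Tgfbr2 cKO, and Tcf21, a mesenchymal factor, by -0.38 from wild type.

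The promoter windows of the members were searched for the CArG box because it is the motif that SRF binds. RefSeq windows of 300 bases, from 250 before to 50 after a transcription start, were available for 32 of the 37 genes as 43 windows of build GRCm38.p6. No window was available here for Actg2, Myh11, Tagln, Csrp2 and Myocd. The CArG box, read on both strands by its own symmetry, was found in 12 of the 43 windows, or 27.9%, which belonged to 10 genes, and in 1.63% of 32851 windows of all genes. Of the 7 genes that were at least 2-fold lower, 5 had a window, and Acta1 and Asb5 had a box in it. Their whole windows are printed 5′ to 3′ on the strand of the gene, with the box in capitals. The Acta1 window is chr8:123894726-123895025 on the minus strand, and that of Asb5 is chr8:54550081-54550380 on the plus strand.
Acta1: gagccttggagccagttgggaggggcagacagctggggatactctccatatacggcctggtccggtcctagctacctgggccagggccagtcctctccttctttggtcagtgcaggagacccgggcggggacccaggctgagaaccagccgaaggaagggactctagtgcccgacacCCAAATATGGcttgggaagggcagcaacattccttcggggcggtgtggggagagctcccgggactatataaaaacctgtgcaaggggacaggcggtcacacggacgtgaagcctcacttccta
Asb5: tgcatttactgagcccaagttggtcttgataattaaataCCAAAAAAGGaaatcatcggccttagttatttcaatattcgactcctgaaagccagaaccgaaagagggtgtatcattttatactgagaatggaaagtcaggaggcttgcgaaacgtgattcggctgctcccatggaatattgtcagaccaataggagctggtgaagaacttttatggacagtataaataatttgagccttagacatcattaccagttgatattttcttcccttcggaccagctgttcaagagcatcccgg

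The box begins 73 bases before the start of Acta1 and 211 bases before that of Asb5. The other boxes are shown as stretches of 30 bases, again with the box in capitals, because their genes carry the same motif and differed from wild type by less than 2-fold, from 0 for Actc1 to -0.95 for Fhl1. They lie at chr2:114052903-114052932 (Actc1, minus strand), chr2:156775293-156775322 (Myl9, plus), chr10:79988534-79988563 (Cnn2, plus), chr14:20929161-20929190 (Vcl, plus), chr14:34588697-34588726 (Ldb3, minus), chrX:56779571-56779600 (Fhl1, plus), chr17:46556225-46556254 and chr17:46556205-46556234 (Srf, minus), and chr1:43196838-43196867 and chr1:43163973-43164002 (Fhl2, minus, at 2 start sites).
Actc1: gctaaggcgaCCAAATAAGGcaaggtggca
Myl9: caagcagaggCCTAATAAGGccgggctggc
Cnn2: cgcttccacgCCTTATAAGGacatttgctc
Vcl: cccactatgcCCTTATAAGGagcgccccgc
Ldb3: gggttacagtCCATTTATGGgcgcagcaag
Fhl1: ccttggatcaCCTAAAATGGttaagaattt
Srf, first box: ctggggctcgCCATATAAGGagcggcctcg
Srf, second box: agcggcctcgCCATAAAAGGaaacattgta
Fhl2, first start site: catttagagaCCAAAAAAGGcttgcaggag
Fhl2, second start site: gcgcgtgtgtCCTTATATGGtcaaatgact

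The boxes of Vcl and Cnn2 are the same 10 letters, and so are those of Asb5 and the first Fhl2 start site, whose genes differed from wild type by -3.22 and -0.29. In the Tgfbr2/Smad4 cKO line against wild type, the 10 genes with a box had a median difference of -0.38, and 2 were past the 2-fold size. The 22 genes with a window but no box had a median of -0.34, and 3 were past that size, namely Cnn1, Des and Pdlim3. Actg2 and Myh11, 2 of the 7 lower genes, had no window and are in neither group. A match of letters is a description of these windows and not of binding, and boxes farther away or inside genes were not searched. The letters CATTCC, bound by TEAD factors, stood on either strand in 25.6% of the members' windows, against 14.7% of all windows. The letters CAGAC, contained in SMAD-binding motifs, stood in 48.8% against 49.6%. By gene, CATTCC stood in 11 of the 32 genes with a window and in 2 of the 5 lower ones. CAGAC stood in 17 of the 32 and in 5 of those 5. These splits were not tested.

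Protein families differed in whether the muscle-type gene had the larger difference from wild type in the Tgfbr2/Smad4 cKO line. The cytoplasmic actin gene Actb differed by -0.04, beside -2.85 for Actg2 and -2.34 for Acta1 but -0.20 for Acta2 and 0 for Actc1. Among myosin heavy chains, the non-muscle genes Myh9 and Myh10 differed by -0.18 and 1.09, beside -3.37 for Myh11. Myh10 had signals of 12.42 in the Tgfbr2/Smad4 cKO array, 11.08 in the Tgfbr2 cKO array and 11.33 in wild type, and was 2.12-fold higher than wild type. The heavy chains thus lay on both sides of 0. Among light chains, Myl9 at -0.03 was close to the widely expressed Myl6 at -0.02. Calponins were divided, with Cnn1 at -1.62 and Cnn2 and Cnn3 at -0.15 and -0.21. Transgelins ran the other way, since the widely expressed Tagln2 had the larger difference, -0.84 beside -0.36. Among tropomyosins, all under 2-fold, Tpm2 at -0.42 and Tpm1 at -0.25 had larger differences than Tpm3 at -0.15 and Tpm4 at -0.14. Among alpha-actinins, Actn1 at -0.51 had a larger difference than Actn4 at -0.16. The filamin genes were both nearly level, with Flna at -0.08 and the muscle filamin gene Flnc at -0.02. In the intermediate filaments Nes, which encodes nestin, was at -1.45 and Vim, which encodes vimentin, at 0.02, beside -2.06 for Des. Of 14 measured non-muscle and related genes, 1 was at least 2-fold lower and 1 at least 2-fold higher, with a median of -0.03. The shares of genes that passed the filter were 2.18% and 1.22%.

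**Figure D3:**
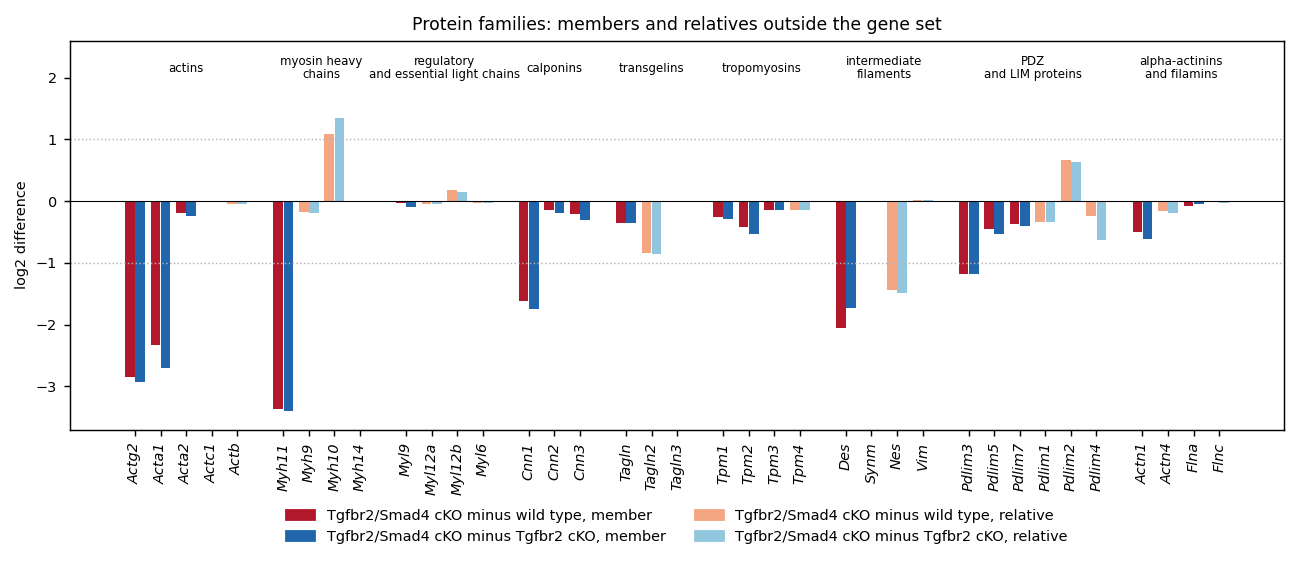
Log2 difference (vertical axis) of the Tgfbr2/Smad4 cKO array from wild type (red) and from Tgfbr2 cKO (blue) for protein families, with members in dark and relatives outside the 37 genes in pale colours. Dotted lines mark 2-fold. Long downward bars belong to Actg2, Acta1, Myh11, Cnn1, Des, Nes and Pdlim3, and the upward pair past 2-fold to Myh10, with 1.09 and 1.34.

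Genes that act beside the contractile apparatus were described from further lists. Among 26 measured focal adhesion and dense plaque genes, the median difference from wild type in the Tgfbr2/Smad4 cKO line was -0.18. Of these 18 were below, against 32.2% of genes that passed the filter, 6 were above and 2 were equal. Of the 11808 genes that passed, 4336 were equal and 2.18% were at least 2-fold lower. The 2 at least 2-fold lower were Itga5, the fibronectin receptor subunit, at -1.33, and Ablim1, an actin-binding LIM protein, at -1.07, and Fermt2 (kindlin-2, an integrin activator) was at -0.81. Of 11 measured smooth muscle channel and signaling genes, 5 passed the level filter, and 3 were below wild type, 3 above and 5 equal, with a median of 0. Kcnmb1, the smooth muscle subunit of the large-conductance potassium channel, had signals of 6.04 in the Tgfbr2/Smad4 cKO array, 10.61 in the Tgfbr2 cKO array and 10.25 in wild type, a difference of -4.21. The angiotensin receptor gene Agtr1a differed by -1.003. Kcnma1, the pore-forming subunit of the same channel as Kcnmb1, ran the other way, at 0.96.

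Markers of other cell types were set beside these results because a bulk array cannot tell fewer cells of a type from less RNA per cell. Skeletal muscle markers, which bear on Acta1 and Asb5, were equal in the Tgfbr2/Smad4 cKO and wild-type arrays for 10 of 16 and higher for 6, by at most 0.19. In that comparison 10434 of 19938 genes were equal, and 8 of the 16 markers passed the level filter. Mean signals of the 16 were 6.19, 6.14 and 6.15 in the Tgfbr2/Smad4 cKO, Tgfbr2 cKO and wild-type arrays, under the median of all values. Myod1, Myf5 and Myf6, which specify skeletal muscle, had equal values in the arrays, but Myf5 and Myf6 did not pass the filter. Myog and Pax7 of the same list were higher than wild type by 0.14 and 0.07. Cardiac markers had mean signals of 6.76, 6.72 and 6.72, with Tnnt2 (cardiac troponin T) at 0.37 and Tnnc1 (troponin C) at -0.10 from wild type. No gene of either list was 2-fold different, where 2.18% of genes that passed the filter were at least 2-fold lower and 1.22% at least 2-fold higher.

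Pericyte markers had mean signals of 8.17, 8.11 and 8.03 in the same order. Against wild type 1 of 7 was below, 2 above and 4 equal. Notch3, a receptor of mural cells, was higher by 1.18, Mcam, a cell adhesion molecule, was at -0.39, and Rgs5, equal in all 3 arrays, did not pass the level filter. Fibroblast markers ran against the contractile genes, with 9 of 11 above wild type and 2 below. Of 11808 genes that passed the filter, 3671 were above. Among the markers 4 were at least 2-fold higher, against 1.22% of those genes, and 1 was at least 2-fold lower, against 2.18%. The higher ones were Dpt at 4.24, Pdgfra (a PDGF receptor) at 1.40, Lum (lumican) at 1.22 and Fap at 1.09. The lower one was Thy1, a surface glycoprotein, at -2.36. Wild-type signals of Dpt and Fap were 5.21 and 6.39, under the median of all values, which limits what their differences can show. Those of Pdgfra and Lum were 9.73 and 10.14, above it. Endothelial markers were equal for 8 of 8, but 1 of them passed the level filter, and 10434 of 19938 genes were equal in that comparison. Epithelial markers had mean signals of 6.07, 6.10 and 6.17, with Krt18 and Krt8, simple keratins, at -0.61 and -0.30. Leukocyte markers had 5.90, 6.03 and 5.95, with Cd68, a macrophage glycoprotein, at -0.25 from wild type and at -0.75 from Tgfbr2 cKO, and Ptprc, the pan-leukocyte marker, equal in all arrays.

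Proliferation genes were lower in the same array as the contractile ones, and most mesothelial markers were lower than wild type in both knockout arrays. Mesothelial markers had mean signals of 6.93 in the Tgfbr2/Smad4 cKO array, 7.78 in the Tgfbr2 cKO array and 8.18 in wild type. In the first, 3 of 6 were at least 2-fold lower than wild type, against 2.18% of genes that passed the filter. These were Upk1b at -3.48, Krt19 at -1.89 and Upk3b at -1.14. Against Tgfbr2 cKO, the mesothelial median in the Tgfbr2/Smad4 cKO array was -0.07. There 4 of 6 were below, against 33.7% of genes that passed the filter, and 2 were equal, as were 4260 of those 11808 genes. Upk1b and Krt19 were at least 2-fold lower, against 2.25% of those genes. Proliferation genes had mean signals of 7.93, 9.26 and 9.44, with a median of -1.62 from wild type in the Tgfbr2/Smad4 cKO line. There 14 of 19 were at least 2-fold lower than wild type, against 2.18% of genes that passed the filter. Mki67, the source of the Ki-67 marker, was at -1.94. The part of proliferation and mesothelial genes in the contractile difference was not tested. In the Tgfbr2 cKO line, contractile genes were near wild type. Mesothelial markers were below wild type there for 5 of 6, against 19% of genes that passed the filter. In that comparison 6511 of the 11808 genes that passed were equal. The mesothelial median was -0.43, with Upk3b at -1.07, and proliferation genes had a median of -0.16.

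**Figure D4:**
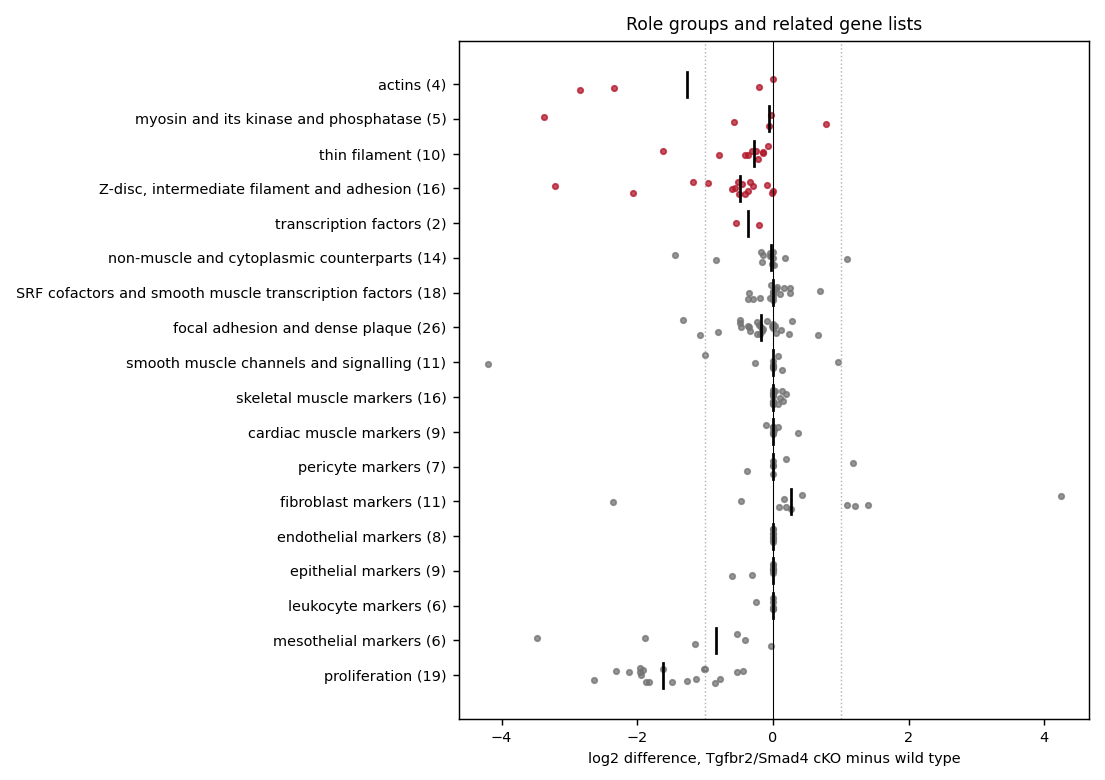
Log2 difference of the Tgfbr2/Smad4 cKO array from wild type (horizontal axis) for each gene of the 5 role groups of members (red) and of related and marker gene lists (grey), with the number of measured genes in brackets, a black bar at each median and dotted lines at 2-fold. Points are spread vertically to show them apart. The medians are -1.27 for actins, -0.48 for Z-disc and adhesion genes and -1.62 for proliferation genes, and 0 for skeletal muscle markers.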

How the data were processed

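The authors' deposited table held log2 signals, 1 value per array for 35556 probe sets, with 0 further columns. The unit was read from the range of 2.82 to 15.6. Software, normalization and genome build were not given in the sources used here. Array medians lay within 0.00413 of each other, and no further normalization was applied. Equal values are frequent, and 44.5% of probe sets had the same value in the Tgfbr2/Smad4 cKO and wild-type arrays.

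Of 23410 probe sets in the platform annotation, 21789 had 1 gene symbol and 1621 had several and were not used. Symbols were updated through gene identifiers of a RefSeq table (GRCm38.p6, names only) for 21698. Probe sets of a gene were averaged. Tpm3 had 4 probe sets and every other member 1. Members and lists were chosen with earlier results of these data known. The 7 members at least 2-fold different are given with all signals, the others with differences, and of each further list the genes at least 2-fold different or those with the largest differences. A further gene list is not reported here.

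With 1 array per group no p-value was computed, and precision is limited by the number of arrays. The counting step was tested on simulated data. Alternatives were other normalizations, level filters, probe set rules, an offset of 32 and size rules of 1.5-fold and 3-fold. Promoters came from RefSeq (GRCm38.p6). Tools were Python 3.11.15, numpy 2.4.6, pandas 2.3.3, limma 3.58.1 in R 4.3.3 and, for plots, matplotlib 3.10.9.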

Additional observations from a re-analysis of the deposited data

How the results depend on the processing

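Medians of the 37 members stayed within 0.0825 of the value given under every alternative run, that figure being the SD over genes of the differences between the Tgfbr2 cKO and wild-type arrays. Counts of members stayed within 1.5 times, except under the 1.5-fold size rule. With that rule, 11 members were lower in the Tgfbr2/Smad4 cKO than in the Tgfbr2 cKO line in place of 7, and 1, Mylk, was higher in place of 0. Against wild type 10 were lower in place of 7 and 1, again Mylk, was higher in place of 0. Of 105 recomputed differences of the 7 named genes, 99 moved by less than 0.0825, and the 6 that moved further were those of Asb5, Des and Pdlim3 with 32 added to the linear signal, which draws dim values together by construction. The restriction to genes whose 3 values all differ was chosen after seeing the data. No paired analysis was possible because each group had 1 array, and no array could be left out for the same reason. Signals near or under the median of all values limit what a difference can show. Such signals were those of Synm and Myocd in every array, and of Asb5 and Des in the Tgfbr2/Smad4 cKO array.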

Other observations

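The 4 probe sets of Tpm3, a tropomyosin gene expressed in most cells, had differences of -0.17, -0.22, -0.16 and -0.05 between the Tgfbr2/Smad4 cKO line and wild type, so they ran in one direction at signals from 8.44 to 12.8 in the Tgfbr2/Smad4 cKO array. Equal values between the Tgfbr2 cKO and wild-type arrays were found for 7 members, Actc1, Synm, Cald1, Synpo2, Pdlim3, Palld and Ldb3. The abundance of equal values in the deposited data has no stated source.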
